A study of Mus musculus with 6 samples.

Results

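Endothelial cells are joined by adherens and tight junctions, which hold the lining of vessels and heart chambers together and are remodelled when endothelium sprouts. The description here covers 10 genes of these contacts among 38918 genes in the deposited table, taken by symbol: Cdh5, Pecam1, Cldn5, Esam, Jam2, Jam3, Tjp1, Icam2, Rasip1 and Cgnl1. Each symbol matched exactly 1 row, and all 10 passed the filter on low values, a mean of at least 1 FPKM over the 6 libraries. FPKM, fragment counts scaled to transcript length and to the library's mapped total, is a level per transcript length, so it can be set side by side between genes.

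RNA came from whole hearts of C57/BL6 mouse embryos at embryonic day 11.5. The conditional knockout group was Nfatc1Cre:Tie2 flox/flox, in which a Cre under the control of Nfatc1, an endocardial gene, acts on 2 floxed alleles of Tek. Tek encodes Tie2, a receptor for angiopoietins. The control group was Tie2 flox/wild-type, littermates with 1 floxed allele. The labels give these controls no Cre, so Cre and loss of Tek cannot be told apart. Each group had 3 libraries from RNA of 18 hearts per genotype, which the series text describes as 1 pool per genotype that was then divided. Xist and liver transcripts nevertheless differed widely between libraries of 1 genotype (values below), which goes against portions of 1 pool. The number of embryos behind a library is thus unclear, and a p-value here reflects how far these libraries vary.

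VE-cadherin, the product of Cdh5, spans the adherens junction and is linked through catenins to actin. Claudin 5, Esam and the junctional adhesion molecules Jam2 and Jam3 are membrane proteins of tight junctions, and Tjp1 (ZO-1) and Cgnl1 (paracingulin) are scaffolds on their inner face. Pecam1 and Icam2 are immunoglobulin-family adhesion proteins at endothelial contacts, and Rasip1 is a Rap1 effector needed for forming vessel lumens. Tie2 is a receptor that gathers at endothelial contacts and is known for stabilising junctions in mature vessels. Tjp1 and Cgnl1 are also used by epithelial cells and Tjp1 by heart muscle, Pecam1, Icam2, Esam and Jam3 also by platelets, so a level in a whole heart is not from endothelium alone.

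None of the 10 genes passed the test across all genes, yet 6 of them were lower in all 3 conditional knockout libraries than in any control. These were Cdh5, Rasip1, Cgnl1, Icam2, Esam and Pecam1, at 60.5% to 76.6% of the control mean. Tjp1, Jam2 and Jam3 overlapped between the groups with means at 90.1%, 105% and 107% of the control mean, and Cldn5 was high in a single conditional knockout library. In whole hearts, fewer endothelial cells and less RNA of a gene per cell cannot be told apart. The test was limma on log2(FPKM + 1) with Benjamini-Hochberg adjustment over 12988 genes, and the smallest adjusted p among the 10 was 0.189, for Cdh5. Over all genes tested, limma called 0.123% lower and 0.0539% higher, 0.177% in all, and 0 of 10 in each direction lies near that background. At an unadjusted p under 0.05, 6 of the 10 were lower and 0 higher, beside 4.37% lower and 2.31% higher over all genes tested. Groups without overlap were found in the lower direction for 6 of 10 genes, beside 8.17% of all genes tested, and in the higher direction for 0 of 10, beside 5.23%. The median log2 fold change of the 10 was -0.41 with 7 below 0, beside a median of -0.01 and 53.2% below 0 for all genes tested. The 10 genes were chosen with earlier results of these data known, so these shares describe them and are no test of the set.

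**Figure D1:**
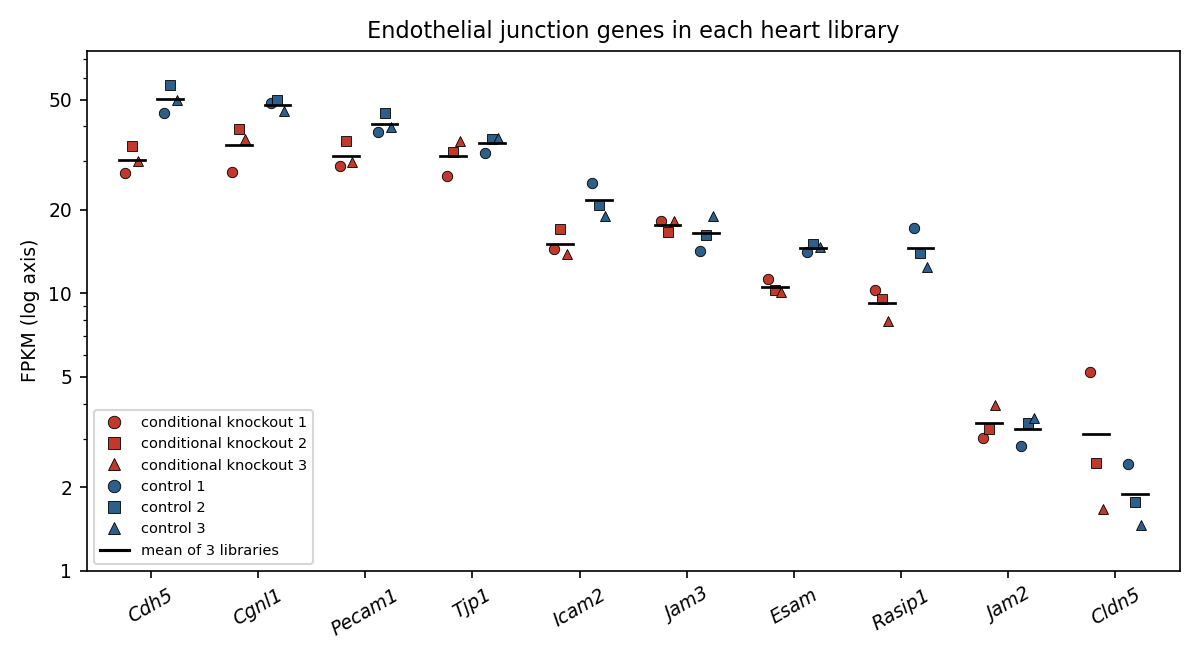
FPKM (log axis) of the 10 junction genes in each library, conditional knockout libraries (red) left of control libraries (blue), with marker shapes for replicates 1 to 3 and a bar at the mean of 3 libraries. Cdh5, Cgnl1, Pecam1, Icam2, Esam and Rasip1 have all red points below all blue ones, and Cldn5 has a single high red point at 5.22 FPKM.

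Marker genes show how the libraries differed beyond the members. Tek stood at 3.38, 3.13 and 3.13 FPKM in conditional knockout libraries 1, 2 and 3 and at 22.4, 25.7 and 16.6 FPKM in control libraries 1, 2 and 3, with every conditional knockout below every control. All 21 other endothelial genes on a list of markers reached a mean of 1 FPKM, and their summed level was 367 to 404 FPKM in conditional knockout libraries and 487 to 521 FPKM in control libraries. Conditional knockout library 1 held less of 6 cardiomyocyte genes (5274 FPKM in sum, against 6948 to 8619 FPKM in the other libraries), and conditional knockout library 2 held more of 6 liver genes (255 FPKM, against 4.39 to 97.3 FPKM elsewhere). Xist ranged from 0.0295 to 32.9 FPKM in conditional knockout and from 0.0171 to 40.7 FPKM in control libraries, and summed Y-linked genes from 54.9 to 82.1 FPKM and from 29.6 to 65.0 FPKM, so sex-linked transcripts differed between libraries of 1 genotype. The embryonic globins Hbb-y and Hba-x were listed at 0 in all 3 controls and not in conditional knockouts, and 6 erythroid genes summed to 35076 to 53572 FPKM in conditional knockout and 7299 to 11581 FPKM in control libraries. Summed platelet genes overlapped, at 23.5 to 39.4 FPKM in conditional knockout and 31.9 to 44.5 FPKM in control libraries, and 6 macrophage genes did not, at 14.6 to 15.4 FPKM and 9.09 to 13.1 FPKM. The part that these differences play in the values below was not tested, except where a value without a library is given.

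Cdh5, on chromosome 8 from 104101625 to 104144511 (GRCm38), had the largest log2 fold change of the 10 by size. Rasip1 was ahead of it without conditional knockout library 1 (-0.67 against -0.63), and Cldn5 with the Y-linked genes as a covariate (0.90 against -0.75). It stood at 27.2, 33.9 and 30.1 FPKM in conditional knockout libraries and at 44.6, 56.5 and 49.6 FPKM in control libraries. The highest conditional knockout library lay below the lowest control, with a factor of 1.32 between them. The log2 fold change was -0.71 ± 0.13 (SE; 95% interval -1.01 to -0.41; limma adjusted p = 0.189), a value below that of all but 0.878% of the genes tested. With the replicate number as a block the adjusted p was 0.0604, the lowest of 16 alternatives that ran up to 0.9999, and the log2 fold change stayed between -0.79 and -0.62. An annotated antisense gene overlaps the start of Cdh5, and as the sources used here give no strand setting for the counting, its reads cannot be told apart.

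Pecam1 and Icam2, adhesion genes of endothelial contacts, were both lower without overlap. Pecam1, on chromosome 11 from 106654217 to 106750628, stood at 28.7, 35.5 and 29.7 FPKM in conditional knockout libraries and at 38.1, 44.7 and 39.8 FPKM in control libraries. The groups did not overlap, but the gap was narrow, with a factor of 1.07 between the nearest libraries (log2 fold change -0.38 ± 0.12, SE; limma adjusted p = 0.638). Icam2, a ligand of leukocyte integrins that lies on the same chromosome from 106377656 to 106388075, stood at 14.5, 17.0 and 13.9 FPKM in conditional knockout libraries and at 25.1, 20.8 and 19.1 FPKM in control libraries. Control library 1 was the highest of the 6, and the log2 fold change of -0.49 ± 0.13 (SE; limma adjusted p = 0.516) became -0.38 without it.

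Among the membrane proteins of tight junctions, Esam was lower without overlap, and both junctional adhesion molecules overlapped between the groups. Esam, on chromosome 9 from 37528078 to 37538319, stood at 11.3, 10.3 and 10.1 FPKM in conditional knockout libraries and at 14.1, 15.1 and 14.7 FPKM in control libraries. Its SE was the smallest of the 6 lower genes, with 10.6 ± 0.624 FPKM in conditional knockouts and 14.6 ± 0.511 FPKM in controls (SD, n = 3 each) and a log2 fold change of -0.43 ± 0.09 (SE; limma adjusted p = 0.261). Jam3, also on chromosome 9 from 27097384 to 27155421, stood at 18.2, 16.7 and 18.2 FPKM in conditional knockout libraries and at 14.3, 16.2 and 19.1 FPKM in control libraries. The conditional knockouts lay inside the range of the controls, and the 95% interval of the log2 fold change ran from -0.18 to 0.39 around 0.10. Jam2, on chromosome 16 from 84774123 to 84825928, stood at 3.01, 3.25 and 3.96 FPKM in conditional knockout libraries and at 2.83, 3.41 and 3.55 FPKM in control libraries. These overlapped as well, with an interval from -0.26 to 0.35 around 0.05. The sign of both genes turned under some alternatives, Jam3 to -0.01 in replicates 2 and 3 alone and Jam2 to -0.03 without control library 1. Their ratio within a library, Jam3 over Jam2, was 5.27 ± 0.745 in conditional knockouts and 5.07 ± 0.312 in controls (SD, n = 3 each).

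Cldn5, on chromosome 16 from 18776847 to 18778262, was the least abundant of the 10 by mean in both groups, and much of its difference came from a single library. It stood at 5.22, 2.46 and 1.67 FPKM in conditional knockout libraries and at 2.43, 1.78 and 1.46 FPKM in control libraries. Conditional knockout library 1 was high, library 2 lay just above the highest control and library 3 lay within the control range. The log2 fold change was 0.43 ± 0.31 (SE; 95% interval -0.29 to 1.15; limma adjusted p = 0.815), and it was 0.09 without conditional knockout library 1. Set against the control of the same replicate number, the conditional knockout was higher in all 3 pairs, and with the replicate block the log2 fold change of 0.43 had an SE of 0.18 (limma unadjusted p = 0.0557, adjusted p = 0.428). In conditional knockout library 1, some genes of epithelium were high as well. The epithelial claudin gene Cldn6 stood at 6.50 FPKM there, against 0.0182 to 0.560 FPKM in the other 5 libraries, and Cldn7 at 2.84 FPKM, against 0.271 to 0.546 FPKM. Epcam, an adhesion gene of epithelium, stood at 3.84 FPKM, against 0.275 to 0.617 FPKM, and the epithelial cadherin gene Cdh1 at 2.44 FPKM, against 0.0122 to 0.294 FPKM. The keratin genes went otherwise, with Krt8 at 9.55 FPKM there, against 8.89 to 15.3 FPKM elsewhere. Krt18 was lowest there, at 14.4 FPKM against 14.6 to 18.9 FPKM. Over all 6 epithelial genes the summed level was 25.2 to 39.6 FPKM in conditional knockout and 25.1 to 35.3 FPKM in control libraries. The part of epithelial RNA in the Cldn5 value was not tested.

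**Figure D2:**
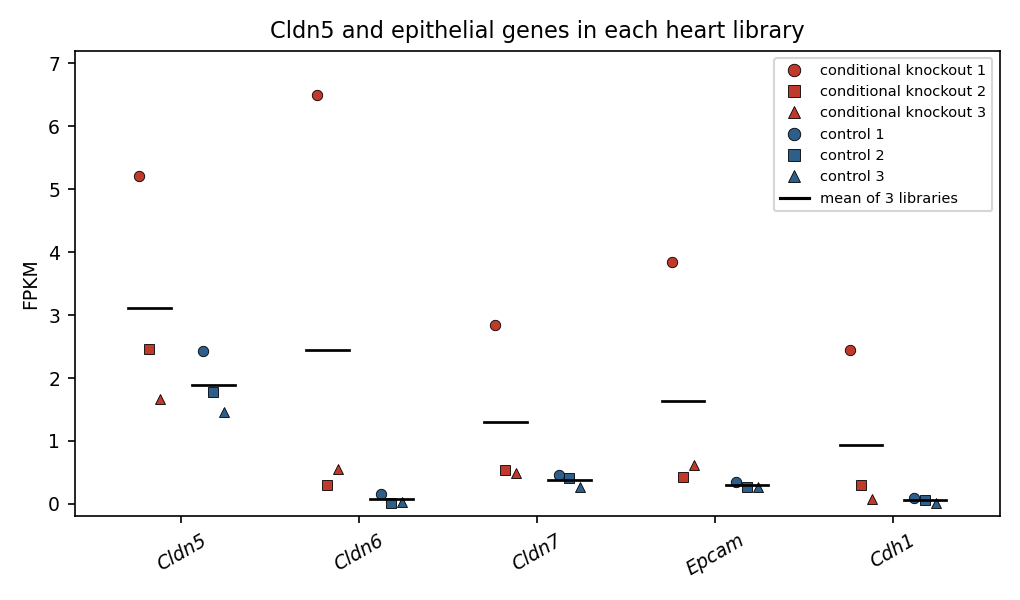
FPKM (linear axis) of Cldn5 and 4 epithelial genes in each library, conditional knockout libraries (red) left of control libraries (blue), with bars at the mean of 3 libraries. Conditional knockout replicate 1 (red circle) is the highest library for all 5 genes, with 5.22 FPKM for Cldn5 and 6.50 FPKM for Cldn6. Krt8 and Krt18, also on the epithelial list, are not plotted and were not highest in that library.

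Of the scaffold genes, Cgnl1 was lower without overlap and Tjp1 overlapped between the groups. Cgnl1, on chromosome 9 from 71626509 to 71771602, stood at 27.4, 39.0 and 36.0 FPKM in conditional knockout libraries and at 48.6, 49.7 and 45.3 FPKM in control libraries. All conditional knockouts were lower, library 1 most of all, and the log2 fold change of -0.49 ± 0.14 (SE; limma adjusted p = 0.565) was -0.34 without that library. Tjp1, on chromosome 7 from 65296165 to 65527781, stood at 26.5, 32.3 and 35.5 FPKM in conditional knockout libraries and at 32.0, 36.2 and 36.4 FPKM in control libraries. The groups overlapped, and the interval around its log2 fold change of -0.15 ran from -0.45 to 0.15. Library 1, with the lower cardiomyocyte sum, was again the lowest of the conditional knockouts, and without it the log2 fold change was -0.04. The ratio of Cgnl1 to Tjp1 within a library, which does not depend on the scaling between libraries, was 1.03, 1.21 and 1.02 in conditional knockouts and 1.52, 1.37 and 1.24 in controls, without overlap.

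Rasip1 starts inside the annotated end of Izumo1 on the same strand of chromosome 7 and runs from 45627488 to 45639093. Izumo1 itself reached at most 0.391 FPKM. Antisense genes without a row in the deposited table, Gm45437 and A030001D20Rik, also lie within Rasip1, as Gm48796 does within Jam3. With no strand setting given, their reads cannot be told apart. Rasip1 stood at 10.3, 9.56 and 7.95 FPKM in conditional knockout libraries and at 17.3, 14.0 and 12.4 FPKM in control libraries, without overlap. Its log2 fold change of -0.59 ± 0.15 (SE; limma adjusted p = 0.400) had rank 2 by size among the 10 and lay between -0.69 and -0.35 over 16 alternatives.

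**Figure D3:**
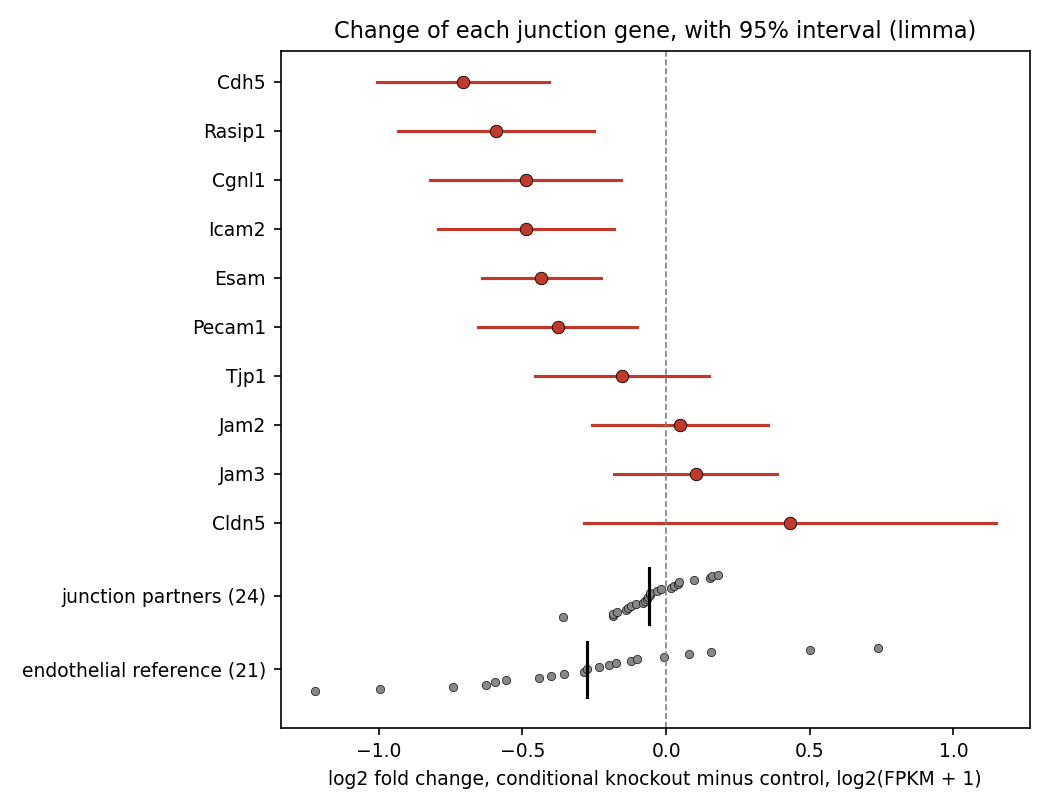
log2 fold change, conditional knockout minus control on the log2(FPKM + 1) scale, of each junction gene with its 95% interval from limma (red), above 24 further junction genes and 21 other endothelial genes (grey dots, black line at the median). The intervals of Cdh5, Rasip1, Cgnl1, Icam2, Esam and Pecam1 lie below 0, before any adjustment for the number of genes, and those of Tjp1, Jam2, Jam3 and Cldn5 cross it.

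Promoter sequences, 250 bases before to 50 bases after a transcript start, are shown for 2 of the lower genes, Rasip1 and Cgnl1, and for Cldn5, which was not lower. They come from RefSeq on GRCm38.p6, whose table matched 4 of the 10 genes, Rasip1, Tjp1, Cgnl1 and Cldn5. The windows are chr7:45627287-45627586 on the plus strand for Rasip1, chr9:71771553-71771852 on the minus strand for Cgnl1 and chr16:18776597-18776896 on the plus strand for Cldn5, each printed 5′ to 3′ on the strand of the gene. Capitals mark GGAA and its reverse complement TTCC, the core letters bound by ETS factors, a major family of endothelial transcription factors.
Rasip1: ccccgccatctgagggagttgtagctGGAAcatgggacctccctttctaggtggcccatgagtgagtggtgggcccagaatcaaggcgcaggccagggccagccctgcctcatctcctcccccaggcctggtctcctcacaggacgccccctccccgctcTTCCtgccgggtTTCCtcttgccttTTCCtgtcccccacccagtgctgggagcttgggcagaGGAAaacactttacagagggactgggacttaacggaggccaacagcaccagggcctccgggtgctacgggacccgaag
Cgnl1: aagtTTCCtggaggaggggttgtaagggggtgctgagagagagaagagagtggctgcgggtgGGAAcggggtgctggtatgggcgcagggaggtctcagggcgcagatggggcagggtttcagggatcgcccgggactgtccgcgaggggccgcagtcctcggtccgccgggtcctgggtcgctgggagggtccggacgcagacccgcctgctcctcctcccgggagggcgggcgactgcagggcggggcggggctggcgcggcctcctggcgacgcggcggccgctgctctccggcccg
Cldn5: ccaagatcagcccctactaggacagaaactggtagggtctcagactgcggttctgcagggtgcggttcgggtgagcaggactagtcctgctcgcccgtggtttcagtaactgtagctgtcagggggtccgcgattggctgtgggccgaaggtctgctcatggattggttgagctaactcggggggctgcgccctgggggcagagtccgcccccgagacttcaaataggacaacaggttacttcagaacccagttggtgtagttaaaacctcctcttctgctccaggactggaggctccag
On both strands the core letters occurred 5 times in the Rasip1 window, 2 times in the Cgnl1 window and 3 times in the Tjp1 window, and had no match in the Cldn5 window. The Tjp1 window, chr7:65371195-65371494 on the minus strand, lies inside the annotated gene and not at its outer end, 65527781. Of 32851 RefSeq promoter windows of this length, 96% held at least 1 match and 28.6% held at least 5, so a match is common in any promoter. The longer letters CCGGAA, which contain GGAA, were in none of these 4 windows and in 14.9% of all windows. The letters CACCC, on both strands, which KLF factors bind, were in all 4 windows, 2 times in each but Cgnl1, where they occurred 3 times, and in 57.5% of all windows. The windows were rich in G and C, with 63.7% for Rasip1, 73.3% for Cgnl1, 65.3% for Tjp1 and 58.3% for Cldn5, beside a median of 52.7%.

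The order of the levels differed between the groups at its top. By mean FPKM, conditional knockouts ran Cgnl1 (34.2), Tjp1 (31.4), Pecam1 (31.3), Cdh5 (30.4), Jam3 (17.7), Icam2 (15.1), Esam (10.6), Rasip1 (9.27), Jam2 (3.41) and Cldn5 (3.12). Controls ran Cdh5 (50.3), Cgnl1 (47.8), Pecam1 (40.9), Tjp1 (34.9), Icam2 (21.7), Jam3 (16.5), Esam (14.6), Rasip1 (14.6), Jam2 (3.26) and Cldn5 (1.89). Within the top 4 in conditional knockouts, the libraries of every pair of neighbours overlapped, while in controls the neighbours Cdh5 and Cgnl1 overlapped and Cgnl1, Pecam1 and Tjp1 were each separate from the next. Cdh5 had rank 3 of 10 in each conditional knockout library, and in controls it had rank 1 in libraries 2 and 3 and rank 2 in library 1. Icam2 and Jam3 also stood in the other order by their means, although their libraries overlapped in both groups.

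Ratios of 2 members within a library were compared for 7 pairs with a two-sided exact permutation test over the libraries, in which 3 against 3 cannot go below p = 0.10. Pecam1 over Cdh5 was 1.05, 1.05 and 0.988 in conditional knockouts and 0.854, 0.792 and 0.802 in controls. The groups did not overlap, with Cdh5 lower relative to Pecam1 in each conditional knockout (log2 difference 0.34; exact permutation p = 0.10, adjusted p = 0.233 over 7 ratios). Cldn5 over Cdh5 (log2 difference 1.31) and Cgnl1 over Tjp1 (-0.34) were also at this smallest p, with the same adjusted p. Cldn5 over Cdh5 had nearly no gap, with 0.0556 in its lowest conditional knockout (library 3) and 0.0545 in its highest control (library 1). Without conditional knockout library 1 the log2 difference of Cldn5 over Cdh5 was 0.78. The ratios of Esam to Cdh5 (exact permutation p = 0.20), Rasip1 to Cdh5 (0.60), Icam2 to Pecam1 (0.90) and Jam3 to Jam2 (0.80) overlapped between the groups. Icam2 over Pecam1 was 0.503, 0.479 and 0.468 in conditional knockouts and 0.658, 0.466 and 0.479 in controls, so control library 1 stood alone.

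To set the members beside the endothelial RNA of each library, their FPKM was divided by the geometric mean of 21 endothelial genes that are not junction proteins and exclude Tek. That mean was itself lower, at 12.1 ± 0.425 FPKM in conditional knockouts and 14.6 ± 0.580 FPKM in controls (SD, n = 3 each), without overlap. Relative to it, Cdh5 still stood lower, at 2.27, 2.69 and 2.55 in conditional knockouts and 3.16, 3.71 and 3.45 in controls. Esam, Rasip1 and Cgnl1 also remained without overlap, with Rasip1 at 0.859, 0.759 and 0.675 in conditional knockouts against 1.22, 0.918 and 0.862 in controls. Cgnl1 was close to overlap, with 3.10 in its highest conditional knockout and 3.15 in its lowest control. Pecam1 and Icam2 overlapped on this scale, with Pecam1 at 2.39, 2.82 and 2.52 in conditional knockouts and 2.70, 2.94 and 2.76 in controls. Jam2 and Jam3, which overlapped in FPKM, were relatively higher in all conditional knockouts, with Jam3 at 1.52, 1.33 and 1.55 against 1.01, 1.07 and 1.33 in controls, again with nearly no gap. These relative levels were not tested, and since the 21 genes were themselves lower on average, a relative level does not give a level per cell.

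**Figure D4:**
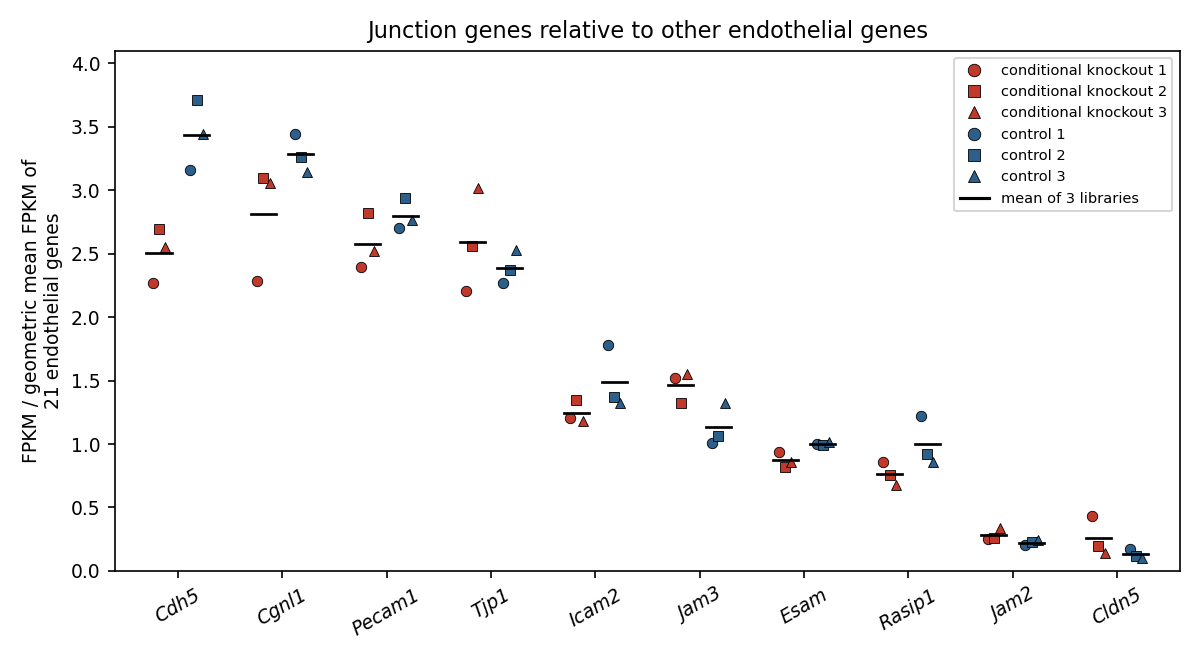
FPKM of each junction gene divided by the geometric mean FPKM of 21 other endothelial genes in the same library (linear axis), conditional knockout libraries (red) left of control libraries (blue), with bars at the mean of 3 libraries. Cdh5 keeps a clear gap, with at most 2.69 in conditional knockouts and at least 3.16 in controls, and Pecam1 overlaps.

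Other junction genes were followed in a list of 25, covering catenins and cadherins, tight junction and polarity proteins, nectins and Rap1 effectors. Of these, 24 were tested in limma, none passed in either direction, 16 lay below 0 and the median log2 fold change was -0.06. At an unadjusted p under 0.05 there was 1 lower and 0 higher, beside 4.37% lower and 2.31% higher over all genes tested. That gene was Jup, named here after its values were seen, which encodes plakoglobin, the catenin shared by adherens junctions and desmosomes. Jup stood at 31.4, 36.4 and 37.3 FPKM in conditional knockout libraries and at 46.3, 48.0 and 41.3 FPKM in control libraries, without overlap (log2 fold change -0.36 ± 0.11, SE; limma adjusted p = 0.634). Ctnnb1, the beta-catenin gene and the most abundant of the list, stood at 244, 199 and 192 FPKM in conditional knockouts and at 252, 210 and 201 FPKM in controls, which overlapped. Of the 24 tested, 3 were lower without overlap (Jup, Nectin2 and Cd99l2) and 1 was higher (Krit1), also named after their values were seen. Over all genes tested, 8.17% were lower and 5.23% higher without overlap. Ocln, the occludin gene, was below the minimum level and not tested, and stood at 1.01, 0.896 and 1.01 FPKM in conditional knockouts and at 0.785, 0.592 and 0.359 FPKM in controls, without overlap.

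Of the 21 other endothelial genes, Plvap and Mmrn2 fell, 19 did not pass and none rose in limma, and 12 were lower and 2 higher without overlap. Over all genes tested, limma called 0.123% lower and 0.0539% higher, and 8.17% were lower and 5.23% higher without overlap. The median log2 fold change of the 21 was -0.28, beside -0.41 for the 10 junction genes. Plvap, which builds the diaphragms of fenestrae and caveolae, changed by -1.22 and Mmrn2, a matrix protein of endothelium, by -0.99 on the log2 scale (limma adjusted p = 0.0164 and 0.0171), against -0.71 for Cdh5. Both passed without control library 1 and Plvap alone without control library 3 (limma adjusted p = 0.0330, against 0.0879 for Mmrn2). Neither passed when any other single library was left out, where adjusted p ran from 0.0546 for Plvap without conditional knockout library 1 to 0.135 for Mmrn2 without control library 2. Eng, the TGF-beta co-receptor endoglin and the most abundant of the 21 over all 6 libraries, stood at 40.6, 54.6 and 48.4 FPKM in conditional knockouts and at 61.0, 81.6 and 70.3 FPKM in controls. The difference between the lists was not tested.

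The 5 tested genes whose profile over the 6 libraries was closest to that of Cdh5, by the root mean square difference of centred log2(FPKM + 1) values, were Anpep (0.0548), Col18a1 (0.0595), Olfml2a (0.0610), Arap3 (0.0735) and Tie1 (0.0762). Anpep encodes an aminopeptidase, Col18a1 a basement membrane collagen, Arap3 a regulator of small GTPases and Tie1 the receptor partner of Tie2. Col18a1, the most abundant of them, stood at 56.8, 71.5 and 58.0 FPKM in conditional knockouts and at 84.6, 109 and 94.3 FPKM in controls. In each of the 5, replicate 2 was the highest library of both groups, as in Cdh5, so the likeness rests on the group difference together with this pattern of libraries.

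Replicates 2 and 3 were also taken without replicate 1, whose libraries differed from the rest in the spacing of their low values. The lower genes did not overlap between the groups, so their direction here was fixed in advance and only the size could change. In these 4 libraries the log2 fold changes were -0.71 for Cdh5, -0.54 for Rasip1, -0.50 for Esam, -0.37 for Pecam1, -0.35 for Icam2 and -0.33 for Cgnl1, with limma adjusted p of 0.202 or more. With 1 library in each group, replicate 1 allows no test of its own.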

How the data were processed

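The authors deposited a table of FPKM values for 38918 genes in 6 libraries. Per the submitters' processing notes, TopHat2 2.0.9, Cufflinks 2.2.1, Cuffdiff and HTSeq were named with the build mm10 and no role or order. Annotation release and strand setting: not given in the sources used here.

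Values were analysed as log2(FPKM + 1) for the 12988 genes that averaged 1 FPKM or more, using limma 3.58.1 (R 4.3.3, intensity trend), Benjamini-Hochberg adjustment over all genes tested and a threshold of 0.05. A fold change on this scale understates the change of low genes. FPKM means carry the SD over 3 libraries, and log2 fold changes the SE from limma. The fit was tested on simulated data. Positions come from GENCODE M21 (GRCm38, the assembly of mm10), which held 37607 of the identifiers.

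Read depth is unknown. Among genes under 0.3 FPKM in every library, 8.64% to 14.1% lay at the modal ratio of 2 libraries where neither was a replicate 1, and 1.20% to 3.56% otherwise, so no whole reads were recovered for replicate 1.

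Between the groups, deviations of same-numbered libraries from their group means correlated at 0.27, 0.11 and 0.44 for replicates 1, 2 and 3, over 12805 genes. Libraries of different numbers ran from -0.39 to 0.095, so replicate 2 was hardly set apart. The pairing was read from the data, and a replicate block was an alternative.

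All members, Tek, list genes past the threshold, the most abundant gene of each list and the 5 genes nearest to Cdh5 are named by rule. Members and lists were chosen with earlier results of these data known.

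Ratios of member pairs were compared with exact permutation tests. No alternative besides those in the closing section was run.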

Additional observations from a re-analysis of the deposited data

How the results depend on the processing

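None of the 10 junction genes passed the threshold under any of 16 alternatives (filters, pseudocounts, scalings, replicate block, each library left out, replicates 2 and 3 alone, a Y-linked covariate, no trend), and Cdh5, Rasip1, Cgnl1, Icam2, Esam and Pecam1 kept negative log2 fold changes in all of them. As these genes did not overlap between the groups, that sign was fixed in advance wherever libraries were left out. A minimum of 5 FPKM left out Jam2 and Cldn5, which have no value there. The replicate block changed no call among the 10, with 0 lower and an adjusted p for Cdh5 of 0.0604. Over all genes tested, 16 were lower, against 21 with quantile normalization, 7 with no filter and 8 in replicates 2 and 3 alone. This count was 1 with the Y-linked covariate and 4 to 9 without any 1 library. Higher genes numbered 7, against 6 to 11 without any 1 library. Of the other endothelial genes, 2 were lower, against 3 with a minimum of 5 FPKM and 3 with quantile normalization. There was 1 lower with no filter, 1 in replicates 2 and 3 alone, 0 with the Y-linked covariate and 0 to 2 without any 1 library. Jam2 ranged from -0.041 to 0.11 without any 1 library and was -0.10 with the Y-linked covariate. Jam3 was -0.012 in replicates 2 and 3 alone and -0.075 with the Y-linked covariate. Without any 1 library, the log2 ratio difference ranged from 0.13 to 0.35 for Esam over Cdh5, from 0.78 to 1.67 for Cldn5 over Cdh5, from -0.078 to 0.29 for Rasip1 over Cdh5, from -0.22 to 0.033 for Icam2 over Pecam1 and from -0.058 to 0.14 for Jam3 over Jam2, and the relative level of Tjp1 from -0.0051 to 0.22. With Plvap and Mmrn2 left out of the endothelial list, an alternative chosen after seeing the data, as was leaving out libraries for these levels, the relative differences of Pecam1 and Esam were -0.22 and -0.30, against -0.12 and -0.20. The cause of these shifts was not tested, and leaving out libraries also made the groups smaller. With 3 libraries per group and unknown depth, small differences were not detectable.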
